A study of Rattus norvegicus with 28 samples.

Results

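The nuclear genes of mitochondrial oxidative phosphorylation were followed in the terminal ileum of newborn rats, on 28 Affymetrix arrays of 1 pup each. The set was chosen by gene symbol, from probe sets with a single symbol on the platform that starts with Nduf, Sdha to Sdhd, Uqcr, Cox and a digit, Cyc1, Cycs or Atp5. That gave 56 genes with 102 probe sets, of 4736 genes with 8740 probe sets, and each gene was represented by the probe set with the highest mean. All 56 passed the filter on dim probe sets. The set held 24 subunits of complex I, 1 of complex II, 4 of complex III, 12 of complex IV and 9 of ATP synthase. Another 6 genes carry such a symbol without being a subunit, namely 2 assembly factors, 1 paralogue, 1 pseudogene, 1 factor of supercomplexes and 1 inhibitor of ATP synthase. Cytochrome c itself (Cycs) had no probe set with a single symbol.

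The groups were 4 unfed newborns (treated as day 0), breast-fed pups on days 1, 2, 3 and 4 of life, and pups on the same days that were fed formula and also exposed to hypoxic stress 3 times per day. Each fed group had 3 arrays, so breast feeding and formula with hypoxia had 12 arrays each. The series addresses necrotizing enterocolitis, an inflammatory bowel disease of the newborn, and this combined exposure is its model. No group had formula without hypoxia or hypoxia without formula, so what each did cannot be told apart, and the labels give neither strain nor sex. Tissue was taken whole, so less RNA per cell and fewer cells of a type cannot be told apart either.

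Oxidative phosphorylation takes electrons from NADH at complex I and from succinate at complex II, passes them through complex III and cytochrome c to oxygen at complex IV, and uses the resulting proton gradient to make ATP at ATP synthase. Most subunits are encoded in the nucleus and imported, while a few core subunits are encoded by the mitochondrial genome. In the small bowel the absorptive enterocytes are rich in mitochondria, and absorption, barrier upkeep and renewal of the epithelium draw on the ATP they make.

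Of the breast-fed arrays, a pair had missing signal in many members. On day 3 replicate 3, 15 of 43 abundant members (34.9%) were lost, against 9.15% of all abundant probe sets, where lost means a deposited signal more than 16-fold below the median of the other arrays and abundant means a median above 500. On day 4 replicate 2, 11 of 43 members (25.6%) were lost, against 6.34% of all abundant probe sets. Of these members, 6 were lost on both arrays, namely Cox4i1, Cox6a1, Cox7b, Ndufb6, Ndufs8 and Uqcrc2. Cox7b, for example, had a normalised signal of 13.6 and 1.52 on these arrays and 286 to 2480 on the others. On breast-fed day 4 replicate 1 only Ndufa4 was lost (20.8), and on the other 25 arrays no member was. Calls of members below are therefore given with 28 arrays and again with the 26 arrays that remain without that pair.

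Median levels of the 56 members were lower on day 4 than on day 1 under formula and hypoxia. In breast-fed pups they were lower after quantile normalisation, but not with the deposited scaling and 26 arrays, where the median change was 0.03 and 25 of 56 members were negative. In that setting the median of all genes was 0.4, and the members' median relative to it was -0.37. With 26 arrays and quantile normalisation this relative median was -0.35. Each array was described by the median over members of the log2 level minus its mean in the unfed arrays. That median was 0.27, -0.66, 0.19 and 0.15 in the 4 unfed pups, so that unfed replicate 2 stood well below the other unfed pups. On day 1 it was between -0.34 and -0.02 in breast-fed pups and between -0.19 and 0.07 under formula and hypoxia. By day 4 it was -0.46, -0.88 and -0.27 in breast-fed pups, where -0.88 belongs to the array with losses, and -0.74, -0.58 and -0.46 under formula and hypoxia. The day 4 arrays of formula and hypoxia thus lay below all day 1 arrays of that regimen. The medians of all 3185 genes tested were between -0.09 and 0.11 on every array. Quantile normalisation gives all arrays the same distribution, so it largely set how close these medians were.

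**Figure D1:**
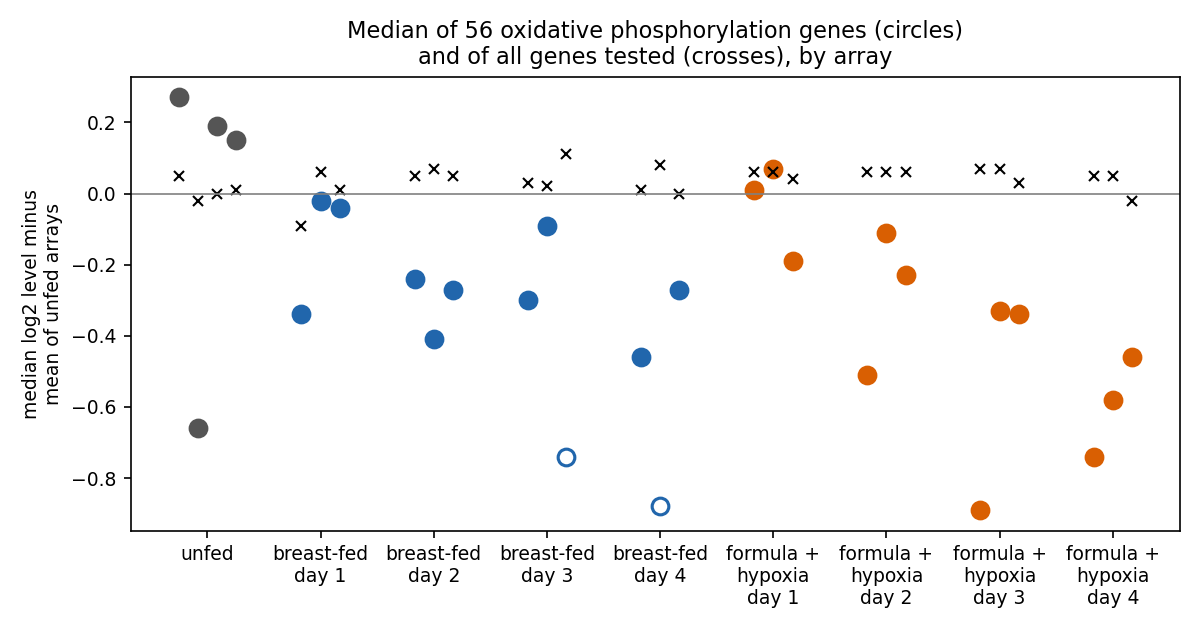
Median log2 level of the 56 oxidative phosphorylation genes on each array (circles), relative to the mean of the unfed arrays, with the median of all 3185 genes tested on the same array (crosses); the open circles are the 2 breast-fed arrays that lost abundant probe sets. The medians of the 3 formula and hypoxia arrays of day 4 lie between -0.74 and -0.46, below those of day 1 (-0.19 to 0.07), and unfed replicate 2 lies at -0.66.

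**Figure D2:**
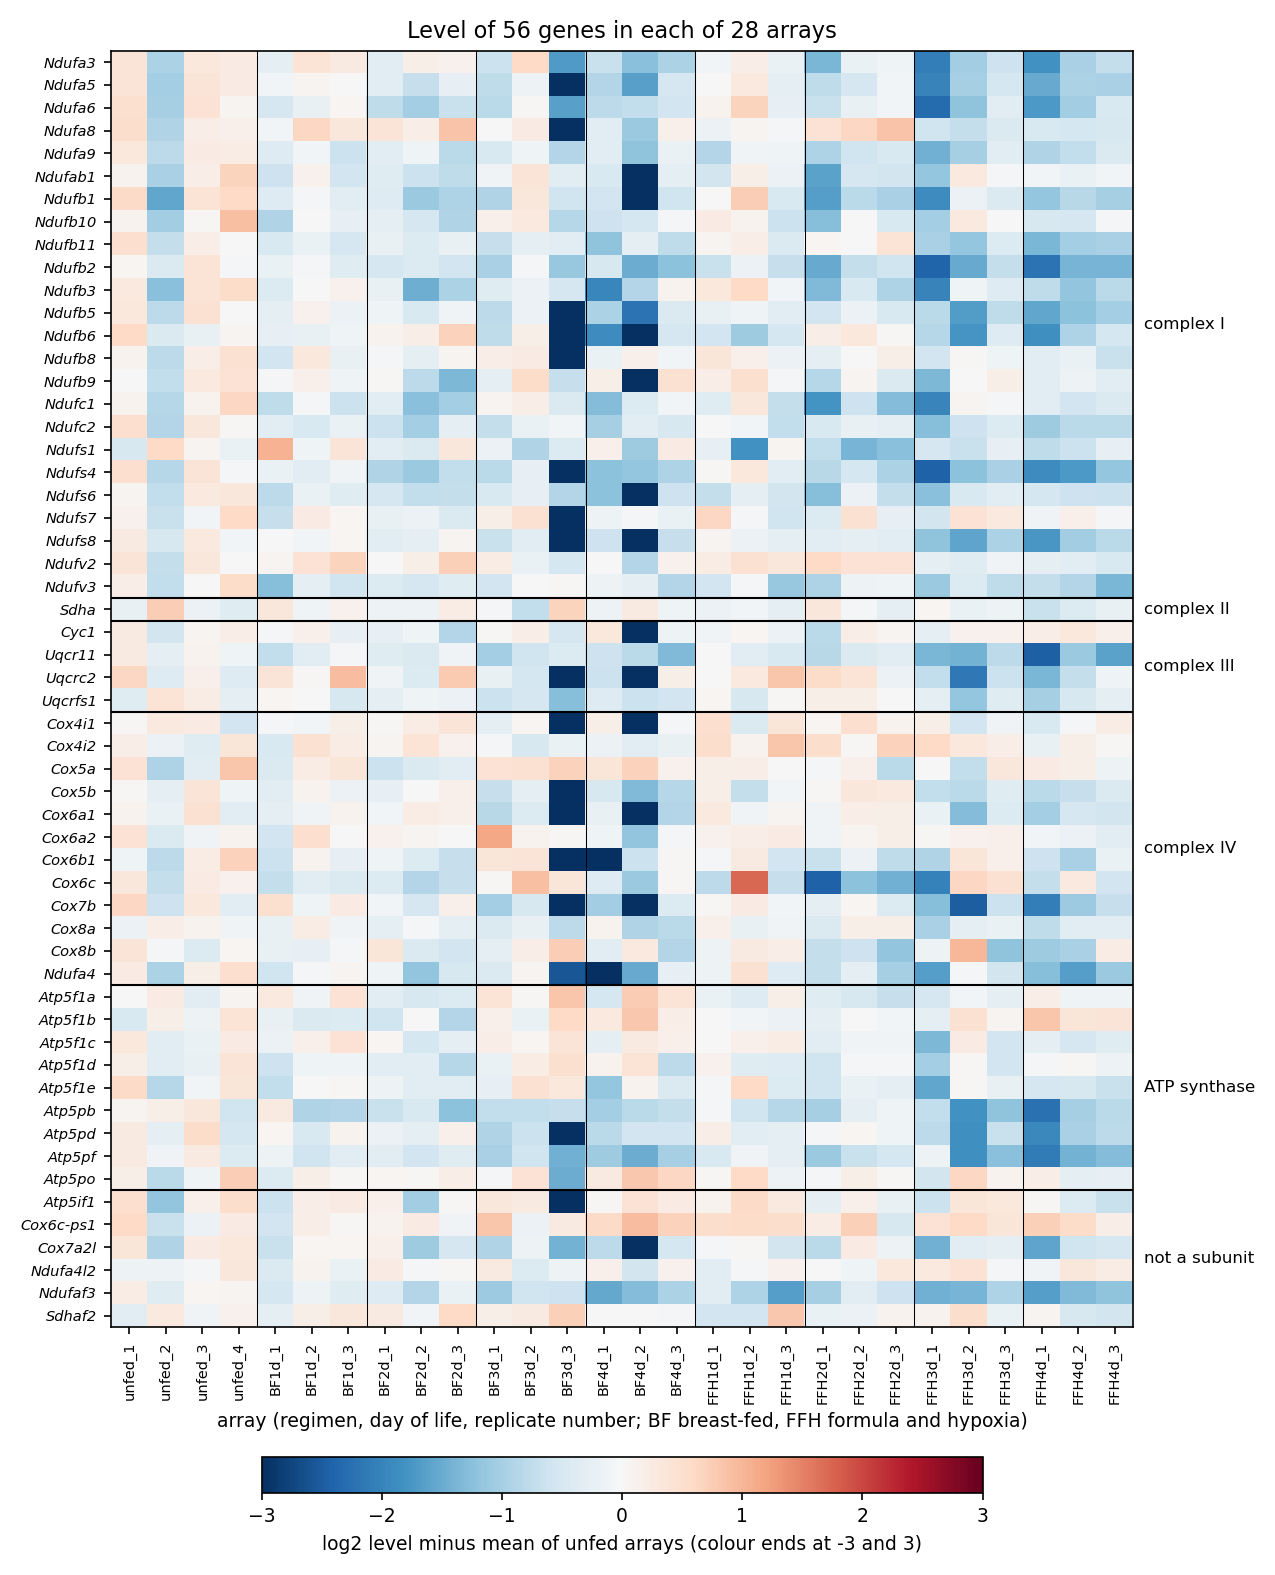
Log2 level of each of the 56 genes (rows, by complex) on each of the 28 arrays (columns, by regimen and day) minus the gene's mean in the unfed arrays, with blue for lower and red for higher and the colour ending at -3 and 3. The dark blue cells of breast-fed day 3 replicate 3 and day 4 replicate 2 are the lost members, and the columns of formula and hypoxia on days 3 and 4 are blue for most complex I genes.

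The clearest comparison was between unfed newborns and pups on days 3 and 4 of formula and hypoxia. With 28 arrays, 12 of 56 members (21.4%) fell and 0 rose (limma, adjusted p under 0.05), beside 11.5% of all genes tested that fell and 10.8% that rose. With 26 arrays, 23 of 56 (41.1%) fell and 0 rose, beside 12.7% of all genes lower and 12.1% higher. At an unadjusted p under 0.05 there were 16 members with 28 arrays, beside 35% of all genes in either direction, and 29 with 26 arrays, beside 37.3%. The median change over the 56 members was -0.56 on the log2 scale (-0.55 with 26 arrays), while that over all genes was 0.04. A negative change was found for 50 of 56 members, or 49 with the deposited scaling and 54 with arrays scaled to a common median. These other scalings moved the median of all genes to 0.24 and -0.10, and the members' median relative to it was -0.91 and -0.95, against -0.59 after quantile normalisation. They also moved the share of all called genes that were lower from 51.5% to 32.6% and 70.6%. In 10 of 56 members all 6 late arrays of formula and hypoxia lay below all 4 unfed arrays (Atp5pb, Atp5pd, Cox5b, Cox7b, Cox8a, Ndufaf3, Ndufb2, Ndufs4, Ndufs8 and Uqcr11), beside 6.5% of all genes. The count of 12 went down to 7 without unfed replicate 1 and to 6 without unfed replicate 3.

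The samples were registered in 2 runs of accessions, which may or may not be batches of array processing. Unfed replicate 2, counted here in the second run, was registered apart from the others of that run, and only its title carries an added letter b. All breast-fed arrays on which members were lost were in the second run. Of the 4 unfed arrays 3 were in the second run, and of the 6 late formula and hypoxia arrays 5 were in the first. With the run as a term in the fit 11 members fell, beside 8.23% of all genes, and 3 of the 12 calls were lost (Ndufa9, Ndufv3 and Uqcrfs1). With 26 arrays and the run 15 fell, beside 8.31% of all genes, and Ndufa3 was lost as well. Within the first run unfed newborns had 1 array, replicate 1, with the highest median over members of all arrays (0.27). The fit there had to assume for it the spread of the other groups, so its count of falls is not given. Of the 12 calls 5 were lost there (Atp5pb, Ndufa3, Ndufa9, Ndufv3 and Uqcrfs1).

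**Figure D3:**
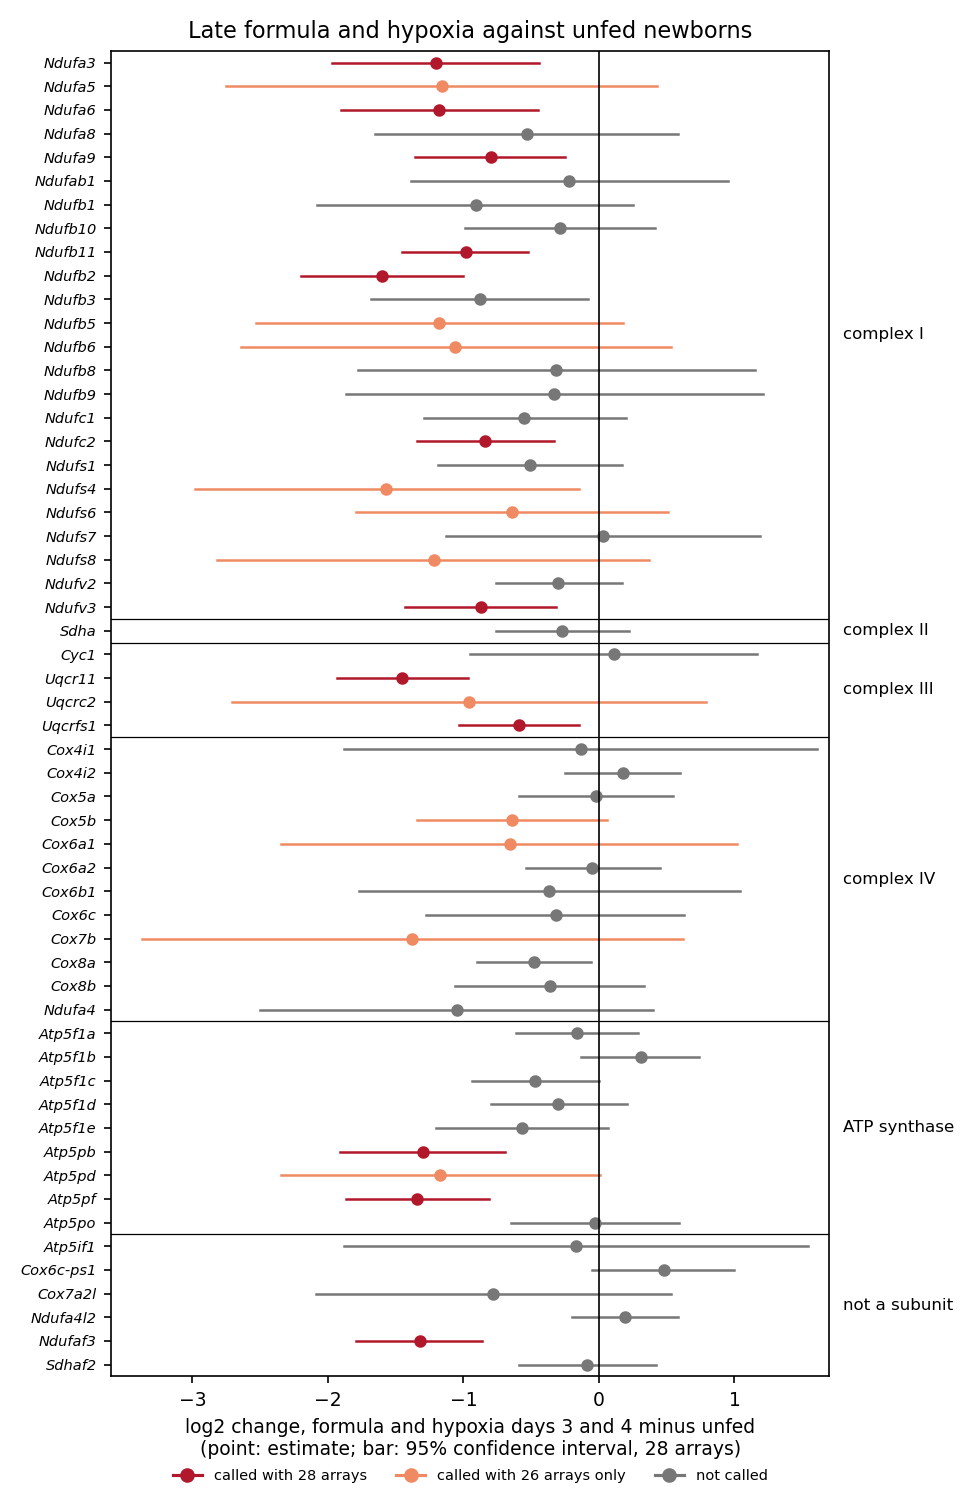
Log2 change from unfed newborns to formula and hypoxia on days 3 and 4 for each of the 56 genes (points) with its 95% confidence interval from the fit to 28 arrays (bars), by complex. The 12 genes called with 28 arrays are dark red, the 11 called only without the 2 arrays that lost probe sets are orange, and among ATP synthase genes Atp5pb, Atp5pd and Atp5pf lie between -1.34 and -1.17 and the others between -0.57 and 0.31.

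The promoters of the members were searched for the core motif of NRF1, a transcription factor known for its role in respiratory chain genes. RefSeq promoters (assembly GRCr8, from 250 bases before to 50 after the gene start) were found for 47 of the 56 members. The motif (GCGCA, any base, GCGC), searched on both strands, was in 6 of 47 member promoters (12.8%), beside 8.13% of 2632 tested genes with a promoter and 4.71% of all 27457 promoters. The shorter core of ETS factors, CCGGAAG, was in 10 of 47 (21.3%), beside 14.9% and 9.22%. No member held both. These are matches of letters and not shown binding sites. The stretches are printed to show what the shared motif looks like in members that fell and in members that were not called. Each is 40 bases around the match, all before the gene start, given 5′ to 3′ on the gene's strand, with the match (read on either strand) in capitals. The stretches lie at chr20:9613732-9613771 (plus strand) for Ndufv3, chr4:53971243-53971282 (minus) for Ndufa5, chr1:31797359-31797398 (plus) for Ndufs6, chr1:30764492-30764531 (plus) for Sdha and chr11:44657518-44657557 (minus) for Atp5po. The match of the other member, Atp5f1c, is not printed.
Ndufv3: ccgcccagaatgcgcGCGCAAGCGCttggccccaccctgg
Ndufa5: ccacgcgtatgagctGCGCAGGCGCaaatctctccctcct
Ndufs6: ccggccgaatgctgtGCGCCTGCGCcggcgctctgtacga
Sdha: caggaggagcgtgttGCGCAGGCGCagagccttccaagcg
Atp5po: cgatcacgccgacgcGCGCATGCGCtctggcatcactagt

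Among complex I genes, the accessory subunits, which surround the catalytic core and are needed for its assembly and stability, made up 20 of 24 genes. All 20 had a negative change from unfed to late formula and hypoxia, 7 fell with 28 arrays and 12 with 26, and their median was -0.88 (-0.87 with 26 arrays). Whether they differed from the core subunits was not tested. Ndufb2, a subunit of the membrane arm, had normalised signals of 3240, 2290, 4090 and 2990 in unfed pups. Its signals were 581, 1080 and 1890 on day 3 and 660, 1170 and 1160 on day 4 of formula and hypoxia, so the groups did not overlap. Ndufb2 fell 3.04-fold (95% confidence interval 2.01 to 4.61, adjusted p = 0.00038). Ndufb11, also of the membrane arm, had signals of 1360, 588, 1100 and 976 in unfed pups, against 490, 428 and 720 on day 3 and 368, 473 and 488 on day 4. Only unfed replicate 2 overlapped with the late arrays, and the fall was 1.98-fold (1.43 to 2.73, adjusted p = 0.00304).

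The other 5 accessory subunits that fell with 28 arrays all had 1 low unfed array, replicate 2. Ndufa3 had signals of 1650, 655, 1590 and 1510 in unfed pups and 297 to 827 late under formula and hypoxia, and fell 2.30-fold (1.35 to 3.92, adjusted p = 0.0218). Ndufa6, a small protein bound to the acyl carrier subunit, had 2260, 809, 2180 and 1720 in unfed pups and 318 to 1270 late, and fell 2.26-fold (1.37 to 3.74, adjusted p = 0.0175). Ndufv3, of the NADH-oxidising module, went from 1950, 1010, 1700 and 2510 to between 650 and 1290, and fell 1.83-fold (1.25 to 2.70, adjusted p = 0.0219). Ndufc2 of the membrane arm, with 796 to 2070 in unfed pups and 597 to 1100 late, fell 1.79-fold (1.26 to 2.54, adjusted p = 0.0157), and Ndufa9, which lies where the matrix and membrane arms meet, with 312 to 682 and 197 to 440, fell 1.74-fold (1.19 to 2.56, adjusted p = 0.0334). In all 5 the groups overlapped through that unfed array.

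With 26 arrays 5 more accessory subunits fell, each of which was lost on an array left out. Ndufs4, a matrix arm subunit known from inherited complex I deficiency, had 1290, 501, 1190 and 889 in unfed pups, 162, 383 and 463 on day 3 and 241, 270 and 403 on day 4, with no overlap. It fell 2.96-fold (adjusted p = 0.000172), against an adjusted p of 0.106 with 28 arrays, where breast-fed day 3 replicate 3 had a signal of 2.04. Ndufb5, of the membrane arm, had 468 to 1120 in unfed pups and 247 to 477 late and fell 2.26-fold (adjusted p = 0.000775). Ndufa5 had 684 to 1830 and 342 to 976 and fell 2.23-fold (adjusted p = 0.00367). Ndufb6 had 749 to 1520 and 275 to 769 and fell 2.08-fold (adjusted p = 0.0119). Ndufs6, whose promoter match is shown above as is that of Ndufa5, had 1040 to 2210 and 719 to 1370, fell 1.56-fold and was just past the threshold (adjusted p = 0.0499). In these 4 genes the ranges overlapped.

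The other 8 accessory subunits were not called with 28 or 26 arrays. With 28 arrays their changes on the log2 scale were -0.91 for Ndufb1, -0.88 for Ndufb3, -0.55 for Ndufc1 and -0.53 for Ndufa8. They were -0.33 for Ndufb9, -0.32 for Ndufb8, -0.29 for Ndufb10 and -0.22 for Ndufab1, the mitochondrial acyl carrier protein. Ndufb8, the complex I gene with the highest mean, had normalised signals of 2700 ± 867 (SD, n = 4) in unfed pups and 2370 ± 751, 2430 ± 295, 2010 ± 1720 and 2520 ± 306 (n = 3 each) on days 1 to 4 of breast feeding. Under formula and hypoxia it had 2830 ± 514, 2550 ± 396, 2230 ± 459 and 1960 ± 319. The day 3 breast-fed mean was 3000 without the array on which Ndufb8 was lost (28.2).

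The 4 core subunits of complex I in the set, which hold iron-sulfur clusters, had a median change of -0.40, and 0 were called with 28 arrays and 1 with 26. That gene was Ndufs8, an iron-sulfur subunit, with 1320, 782, 1340 and 1030 in unfed pups, 465, 361 and 561 on day 3 and 321, 525 and 618 on day 4. Its groups did not overlap, and Ndufs8 fell 2.34-fold (adjusted p = 8.2e-05 with 26 arrays, 0.274 with 28). Ndufv2 had a change of -0.30, Ndufs7 of 0.03 and the dim Ndufs1, with signals of 8.07 to 108 over all arrays, of -0.51.

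Complex II was represented by Sdha, the flavoprotein that oxidises succinate, which is also an enzyme of the tricarboxylic acid cycle. Sdha had signals of 557, 1090, 576 and 499 in unfed pups and 669, 564, 585, 403, 481 and 549 late under formula and hypoxia, with overlap. Its change was -0.27 (confidence interval -0.76 to 0.22, adjusted p = 0.451). Group means were 679 ± 273 in unfed pups, 707, 638, 684 and 650 on days 1 to 4 of breast feeding and 571, 656, 606 and 478 under formula and hypoxia. In unfed replicate 2 Sdha was the highest of the unfed arrays, unlike most members.

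In complex III, which passes electrons from ubiquinol to cytochrome c, 2 of 4 genes fell with 28 arrays and 3 with 26. Uqcr11, a small subunit, gave the strongest result of all members. Its signals were 3370, 2310, 2990 and 2540 in unfed pups, 1060, 1040 and 1610 on day 3 and 503, 1280 and 905 on day 4 of formula and hypoxia, without overlap. It fell 2.74-fold (1.96 to 3.81, adjusted p = 9.2e-05). Uqcrfs1, the Rieske iron-sulfur protein and the gene with the highest mean in the complex, had a mean of 3170 in unfed pups (n = 4), 2850, 2710, 1810 and 2150 on days 1 to 4 of breast feeding and 2870, 3360, 2110 and 2100 under formula and hypoxia (n = 3 each), with an SD of 624 and 510 in the last pair. Uqcrfs1 fell 1.51-fold (1.11 to 2.04) with an adjusted p of 0.0461, but was not called with the run as a term or in 16 of the 28 fits without 1 array. Uqcrc2, a core protein, had 756 to 1540 in unfed pups and 220 to 907 late and fell 1.94-fold with 26 arrays (adjusted p = 0.0306), and Cyc1, which carries the haem of cytochrome c1, had a change of 0.11.

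Complex IV, the oxidase that reduces oxygen, had 0 of 12 genes called with 28 arrays and 3 with 26, and a median change of -0.36. The genes that fell with 26 arrays were Cox7b (2.59-fold, adjusted p = 0.00219), Cox6a1 (1.59-fold, adjusted p = 0.0205) and Cox5b, a zinc-binding subunit on the matrix side (1.56-fold, adjusted p = 0.0142). Cox7b had 2480, 1060, 2010 and 1310 in unfed pups, 661, 286 and 1040 on day 3 and 381, 753 and 1000 on day 4, so its groups were apart by a narrow margin. Cox5b had 2440 to 3900 in unfed pups and 1700 to 2330 late, without overlap, and Cox6a1 2960 to 5140 and 1510 to 3260, with overlap. Not called were Ndufa4 (-1.05), once counted with complex I, Cox8a (-0.48), Cox6b1 (-0.37), Cox6c (-0.32), Cox4i1 (-0.13) and Cox5a (-0.02). Cox4i1, with the highest mean in the complex, had 5820 ± 1430 in unfed pups and 5170 ± 1310 and 5370 ± 1230 on days 3 and 4 of formula and hypoxia. Earlier in that regimen Cox4i1 had 6510 ± 2040 and 6670 ± 1180, and in breast-fed pups 5720 ± 563, 6580 ± 796, 3570 ± 3040 and 4000 ± 3420 on days 1 to 4, the last pair including the lost values 141 and 97.9.

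The isoforms of complex IV subunits known from other tissues or from hypoxia were not called. Cox4i2, an isoform of lung that responds to hypoxia in other cells, had a change of 0.18 (confidence interval -0.25 to 0.60) beside -0.13 for its broad counterpart Cox4i1. Cox6a2 and Cox8b, the heart and skeletal muscle isoforms, had -0.05 and -0.36, beside -0.66 and -0.48 for Cox6a1 and Cox8a. Cox4i2 had 336, 256, 225 and 376 in unfed pups. Formula and hypoxia gave Cox4i2 signals of 422, 317 and 530 (day 1), 423, 300 and 475 (day 2), 446, 364 and 338 (day 3) and 249, 329 and 299 (day 4). Arrays of this regimen above the unfed range were on days 1, 2 and 3, and its day 4 arrays lay within that range. Breast-fed day 1 replicate 2 (406) and day 2 replicate 2 (394) also lay above it.

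Within ATP synthase the peripheral stalk, which holds the catalytic head still against the turning rotor, had larger negative changes than the head. Of 4 stalk genes 2 fell with 28 arrays and 3 with 26, with a median of -1.23, while 0 of 5 genes of the catalytic head and central stalk were called and their median was -0.30. The difference between these groups of genes was not tested. Atp5pf, the coupling factor of the stalk, had 1490, 1150, 1490 and 924 in unfed pups, 1110, 341 and 518 on day 3 and 283, 460 and 498 on day 4 of formula and hypoxia. A single day 3 array overlapped with unfed pups, and Atp5pf fell 2.53-fold (1.75 to 3.66, adjusted p = 0.000628). Atp5pb, the membrane-bound stalk subunit, had 1670, 1760, 1980 and 1030 in unfed pups, 936, 436 and 674 on day 3 and 328, 775 and 896 on day 4, without overlap, and fell 2.46-fold (1.61 to 3.76, adjusted p = 0.00301). Atp5pd had 1470 to 3110 in unfed pups and 548 to 1330 late, without overlap, and fell 2.24-fold with 26 arrays (adjusted p = 0.00172). Atp5po, the stalk subunit that joins the head, had 4000 ± 1720 in unfed pups and 4070 ± 1590 and 3500 ± 663 late, a change of -0.03.

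The catalytic subunit Atp5f1b was 1 of 6 members with a positive change, beside Cyc1, Ndufs7, Cox4i2, Ndufa4l2 and Cox6c-ps1, none of which was called. Its signals were 2310, 3580, 2850 and 4180 in unfed pups, 2550, 4350 and 3340 on day 3 and 5610, 4060 and 4150 on day 4 of formula and hypoxia. The change was 0.31 (confidence interval -0.13 to 0.74, adjusted p = 0.314), or -0.13 with arrays scaled to a common median. Day 4 of breast feeding also had high values of Atp5f1b (3880, 5530 and 3610). The other genes of the head and central stalk had changes of -0.16 (Atp5f1a), -0.47 (Atp5f1c), -0.30 (Atp5f1d) and -0.57 (Atp5f1e), none of which was called. The mean of Atp5po, the gene with the highest mean in ATP synthase, was 3590, 3990, 3310 and 5560 on days 1 to 4 of breast feeding and 4270 and 3850 on days 1 and 2 of formula and hypoxia.

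**Figure D4:**
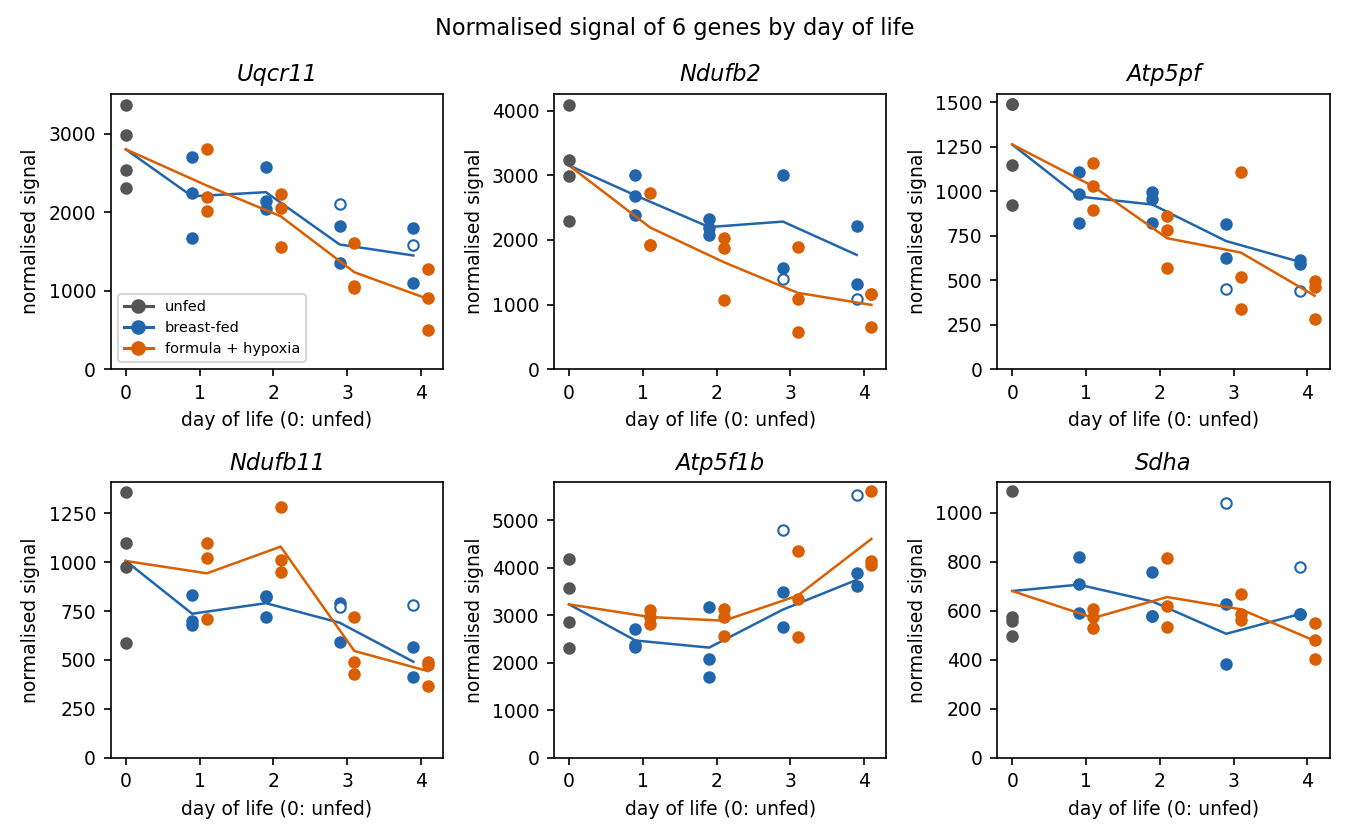
Normalised signal of 6 genes on each array (points) by day of life, with lines through the group means and open points for the 2 breast-fed arrays that lost abundant probe sets, which the lines leave out. The group means of Uqcr11, Ndufb2, Atp5pf and Ndufb11 are lower on days 3 and 4 than in unfed pups. They are lowest under formula and hypoxia on day 4. On days 3 and 4 all arrays of Uqcr11 lie below the unfed arrays. Some arrays of Ndufb2, Atp5pf and Ndufb11 overlap with unfed pups, as do those of Sdha and Atp5f1b.

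Of the 6 genes that are not subunits, Ndufaf3, an assembly factor of complex I, fell. It had 303, 196, 268 and 271 in unfed pups, 90, 92 and 131 on day 3 and 76.7, 97.9 and 106 on day 4 of formula and hypoxia, without overlap. The fall was 2.50-fold (1.81 to 3.45, adjusted p = 0.000188). The others were not called. Cox7a2l, a factor that joins complexes III and IV, had a change of -0.78, Atp5if1, the inhibitor of ATP hydrolysis, of -0.17, and Sdhaf2, which attaches the flavin to Sdha, of -0.09. Ndufa4l2, a paralogue known to be induced by hypoxia, had signals of 91.5 to 133 in unfed pups and 95.7 to 141 late under formula and hypoxia, with overlap and a change of 0.19 (confidence interval -0.20 to 0.58). The dim pseudogene Cox6c-ps1 had the highest change of all members, 0.48 (adjusted p = 0.186), and it was called higher with the deposited scaling.

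Breast-fed pups on days 3 and 4 were also set against the unfed newborns, which makes the same 4 unfed arrays the controls of both comparisons. With 28 arrays 6 members fell and 0 rose, beside 3.55% of all genes lower and 7.28% higher, and the median over members was -0.74. With 26 arrays 2 fell, beside 1.73% of all genes lower and 3.14% higher, and the median was -0.33. Ndufaf3 (2.03-fold, adjusted p = 0.00521) and Uqcr11 (1.73-fold, adjusted p = 0.0267) fell in both fits. Their other probe sets had smaller log2 changes with 26 arrays. These were -0.06 and -0.30 beside -1.04 for Ndufaf3, and -0.28 beside -0.89 for Uqcr11 (-1.08 beside -0.79 with 28 arrays). Atp5pf (2.13-fold, adjusted p = 0.00851), Cox5b (2.17-fold, adjusted p = 0.033), Uqcrfs1 (1.59-fold, adjusted p = 0.0424) and Ndufb2 (1.85-fold, adjusted p = 0.0492) fell with 28 arrays only. With 26 arrays their adjusted p was 0.0524, 0.0982, 0.166 and 0.196.

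On the 4 late breast-fed arrays kept, Ndufaf3 had 116, 166, 83.9 and 128 and Atp5pf 624, 818, 592 and 616, all below the unfed arrays. Ndufb2 had 1560, 3010, 2220 and 1320 and Cox5b 1850, 2480, 2150 and 1640, and both overlapped with unfed pups. The signals of Uqcr11 on these arrays were 1360, 1820, 1800 and 1100, all below the lowest unfed array (2310). In 6 of 56 members (Atp5pb, Atp5pd, Atp5pf, Ndufaf3, Uqcr11 and Uqcrfs1) these 4 arrays lay below all unfed arrays, beside 4.96% of all genes. The count of 6 called members rested on few arrays. It was 3 without unfed replicate 1, 2 without unfed replicate 3 and 3 without breast-fed day 4 replicate 2. It was 15 without breast-fed day 3 replicate 2, 10 without day 3 replicate 1, 12 without day 4 replicate 1 and 11 without day 4 replicate 3.

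When formula and hypoxia were compared with breast feeding at the same age, no member passed the limma test on any day. The counts were 0 of 56 on each of days 1 to 4, beside 0.22%, 0.785%, 1.04% and 1.29% of all genes lower and 0.0628%, 0.691%, 0.973% and 0.691% higher. At an unadjusted p under 0.05 there were 2, 1, 5 and 4 members, beside 9.14%, 10.2%, 16.6% and 15% of all genes. With 26 arrays the counts were again 0, beside 0.157%, 0.941%, 0.408% and 0.596% of all genes lower and 0.125%, 0.753%, 0.565% and 0.596% higher. In that fit 2, 1, 7 and 3 members had an unadjusted p under 0.05, beside 9.63%, 11.1%, 11.4% and 12.3% of all genes. The median over members was then 0.08 on day 1, -0.01 on day 2, -0.45 on day 3 and -0.16 on day 4, and 50 and 39 of 56 members had a negative change on days 3 and 4. The test of whether the effect on days 3 and 4 differed from that on days 1 and 2 gave 0 members (3 at an unadjusted p under 0.05, which 12.6% of all genes passed), beside 0.345% of all genes lower and 0.157% higher. With 26 arrays it again gave 0 members (also 3, and 11.5% of all genes), beside 0.125% of all genes lower and 0.125% higher, and the median of that difference was -0.36. The fall after birth is thus not shown to differ between the regimens for any member. Late breast-fed arrays were 4 in the second run of accessions and 2 in the first, against 1 and 5 under formula and hypoxia. All breast-fed day 4 arrays were in the second run, so regimen and run were partly aligned.

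By size, the members that led on single days had wide intervals. On day 1 these were Ndufs1 (-1.10, adjusted p = 0.435), Cox6c-ps1 (0.65) and Ndufaf3 (-0.61), and on day 2 Cox6c (-1.03, adjusted p = 0.599), Ndufs1 (2-fold lower, confidence interval on the log2 scale -1.86 to -0.14) and Cox8b (-0.63). On day 3 with 28 arrays Atp5if1 (2.13), Ndufb8 (1.68) and Cox4i1 (1.66) led, all lost on breast-fed replicate 3. On day 4 Ndufs6 (1.91), Cox4i1 (1.77) and Ndufab1 (1.76) led, all lost on breast-fed replicate 2. With 26 arrays the leaders on day 3 were Ndufa3 (-1.21, adjusted p = 0.279), Ndufb2 (-1.03) and Ndufs4 (-1.01), and on day 4 Ndufa4 (1.92, adjusted p = 0.372), Cox6b1 (1.07) and Ndufb2 (-0.82). Both Ndufa4 and Cox6b1 were low on breast-fed day 4 replicate 1 (20.8 and 368). For the difference between late and early effects the leaders were Cox4i1 (1.64), Cox6a1 (1.59) and Ndufb6 (1.57) with 28 arrays and Ndufa6 (-1.09), Ndufs4 (-0.95) and Ndufb9 (-0.80) with 26.

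Averaged over days 1 to 4, 0 of 56 members differed between the regimens with 28 arrays (6 at an unadjusted p under 0.05, which 26.8% of all genes passed), beside 6.75% of all genes lower and 4.68% higher. The largest values were 0.89 for Cox6a1, 0.89 for Cox4i1 and 0.65 for Cox7b, which are members lost on breast-fed arrays. With 26 arrays 2 members were lower under formula and hypoxia, beside 5.4% of all genes lower and 4.42% higher. Ndufb2 was 1.57-fold lower (adjusted p = 0.0257, against 0.0544 with 28 arrays) and the dim Ndufs1 1.62-fold lower (adjusted p = 0.0338, against 0.0627). The regimens overlapped in both, with 1320 to 3010 on the 10 breast-fed arrays kept and 581 to 2730 on the 12 arrays of formula and hypoxia for Ndufb2, and 22.2 to 108 and 8.07 to 51.4 for Ndufs1. The median over members was 0.09 with 28 arrays and -0.11 with 26, where 43 of 56 were negative. Late formula and hypoxia arrays lay below all 4 late breast-fed arrays kept in 2 members, Ndufa8 and Ndufs8, beside 3.58% of all genes.

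On the first day of life no member was called against unfed newborns with limma. Breast-fed day 1 gave 0 of 56 (1 at an unadjusted p under 0.05, which 5.84% of all genes passed) beside 0% of all genes lower and 0% higher, in either fit, with the largest values for Ndufv3 (-0.73), Atp5pb (-0.50) and Cox6c (-0.49). Formula and hypoxia on day 1 gave 0 of 56 (1 at an unadjusted p under 0.05, which 9.98% of all genes passed) beside 0.188% of all genes lower and 0.22% higher, with Ndufaf3 at -0.96 (adjusted p = 0.153), Ndufb6 at -0.72 and Ndufs1 at -0.66. With 26 arrays it again gave 0 (also 1, and 11.2% of all genes), beside 0.0941% of all genes lower and 0.157% higher. These comparisons share the unfed arrays as well.

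Change with age within a regimen was tested from day 1 to day 4, which leaves out the unfed pups. Under formula and hypoxia 4 members fell with 28 arrays, beside 6.78% of all genes lower and 6.62% higher. With 26 arrays 12 fell, beside 7.81% lower and 7.56% higher, and 0 rose in either fit. Uqcr11 had 2810, 2190 and 2020 on day 1 and 503, 1280 and 905 on day 4 and fell 2.75-fold (1.81 to 4.18, adjusted p = 0.00231). The other probe set of Uqcr11 had a smaller log2 change, -0.43 beside -1.46, while that of Atp5pf had -1.46 beside -1.33. Atp5pf had 894, 1160 and 1030 on day 1 and 283, 460 and 498 on day 4 and fell 2.51-fold (1.57 to 4.00, adjusted p = 0.00991). Ndufb2 had 1930, 2730 and 1920, then 660, 1170 and 1160, and fell 2.24-fold (1.32 to 3.79, adjusted p = 0.0366). Ndufb11 had 1020, 1100 and 709, then 368, 473 and 488, and fell 2.09-fold (1.39 to 3.14, adjusted p = 0.0159).

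In this comparison 8 members were called only with 26 arrays, and in each the day 4 signals lay below those of day 1. Ndufs4 fell 3.05-fold (732 to 1140 on day 1, 241 to 403 on day 4), Cox7b 2.54-fold (1520 to 1930, 381 to 1000) and Ndufa6 2.37-fold (1370 to 2580, 483 to 1180). Ndufa5 fell 2.22-fold (1150 to 1730, 488 to 718), Atp5pd 2.12-fold (1690 to 2450, 548 to 1240) and Ndufs8 2.10-fold (884 to 1150, 321 to 618). Ndufb5 fell 2.05-fold (635 to 739, 269 to 396) and Cox6a1 1.73-fold (3480 to 4610, 1840 to 2650). Other probe sets above the filter had smaller log2 changes for Cox6a1 (-0.14 and 0.03 beside -0.79) and Ndufb5 (-0.42 beside -1.04). They had close ones for Ndufs4 (-1.65 beside -1.61) and Ndufa6 (-1.25 beside -1.25), and -0.67 and -1.15 beside -1.07 for Ndufs8. The median over members was -0.49 in both fits. In 27 of 56 members all day 4 arrays lay below all day 1 arrays, beside 17.1% of all genes. The count of 4 was 2 without day 1 replicate 1 or replicate 2, 1 without day 4 replicate 1 and, leaving out the breast-fed array of day 3 with losses, 8. Replicate 2 of day 1 also had the highest signal of the 3′ actin control relative to its 5′ control, a sign of RNA integrity, at 4.17, against 0.97 to 2.42 on the other arrays, and its part in the result was not tested.

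From day 1 to day 4 of breast feeding 0 members were called (17 at an unadjusted p under 0.05, which 17% of all genes passed) beside 0% of all genes lower and 0.314% higher, and the median was -0.53. The largest values, Cox7b (-3.17), Ndufs8 (-2.53) and Uqcrc2 (-2.52), rest on the lost values of day 4 replicate 2. All day 4 arrays of breast feeding were in the second run of accessions, but of day 1 only replicate 2 was. With 26 arrays the count was 0 (8 at an unadjusted p under 0.05, which 10.7% of all genes passed), beside 0% of all genes lower and 0.0941% higher, the median was -0.34, and Ndufa4 (-3.07), Cox6b1 (-1.41) and Ndufb6 (1.99-fold lower) led. Whether any of the 9 groups differed was asked with an F test, which called 5 members with 28 arrays (Uqcr11, Ndufb11, Ndufb2, Ndufaf3 and Atp5pf), beside 23.8% of all genes. It called 17 with 26 arrays, beside 21.4%, Ndufa8 among them.

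Several members had more than 1 probe set, which gave a check of the change within the same arrays. Of 37 other probe sets of the members above the filter, 34 were lower late under formula and hypoxia than in unfed pups. Close values came from Atp5f1d (-0.29 beside -0.30 for the probe set chosen), Atp5f1e (-0.78 beside -0.57), Atp5po (-0.15 beside -0.03), Cox5b (-0.47 beside -0.64), Cox7a2l (-0.52 beside -0.78), Ndufa6 (-1.08 beside -1.18), Ndufb5 (-1.21 beside -1.18), Ndufb6 (-1.05 beside -1.06) and Ndufc1 (-0.50 beside -0.55). Cox8a had -0.48, -0.45 and -0.65 beside -0.48, Cox6a1 had -0.29 and -0.47 beside -0.66, and Uqcrfs1 had -0.57 and -0.95 beside -0.59. Ndufs4 had -1.81 beside -1.57, and Ndufs8 had -0.60 and -1.37 beside -1.22.

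Other probe sets disagreed in size or sign. Uqcr11 had -0.73 beside -1.45, and Ndufaf3 had -0.67 and -0.19 beside -1.32. Atp5pf had -2.04 beside -1.34. Ndufv3 had 0.31 on a dim probe set (mean signal 61.2) beside -0.87. Ndufb8 had -1.01, -0.93 and -0.14 beside -0.32. Larger negative values than on the chosen probe set were found for Ndufab1 (-0.82 beside -0.22), Cox6b1 (-0.91 beside -0.37) and Atp5if1 (-1.04, -0.73 and -0.59 beside -0.17). Cox4i1 had 0.05 and -0.68 beside -0.13, Cox6c 0.02 beside -0.32, Cox6a2 -0.40 beside -0.05 and Ndufa4l2 -0.05 beside 0.19. Second probe sets of Cox6a2, Cox8b, Ndufa4l2, Ndufab1, Ndufb11, Ndufs4 and Ndufs8 below the filter had changes between -0.86 and 0.21.

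Neighbouring mitochondrial pathways were read from the same fit. Of all genes tested, 11.5% fell and 10.8% rose late under formula and hypoxia with 28 arrays. Late under breast feeding 3.55% fell and 7.28% rose. Over all days 6.75% were lower and 4.68% higher under formula and hypoxia than under breast feeding. Of 14 genes of the tricarboxylic acid cycle and pyruvate dehydrogenase, 3 fell and 0 rose late under formula and hypoxia, with a median of -0.39. They were Pdhb (-1.75, adjusted p = 8e-05) and Pdhx (-1.11, adjusted p = 0.00402), both parts of the pyruvate dehydrogenase complex, and its inhibitory kinase Pdk1 (-0.89, adjusted p = 0.0236). With 26 arrays Idh3g (-0.64, adjusted p = 0.0485) was added. Pdhb was also lower under formula and hypoxia than in breast-fed pups over all days (-0.63, adjusted p = 0.0172). Citrate synthase, Cs, fell late under breast feeding (-0.84, adjusted p = 0.0263).

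Among 16 carriers, porins and enzymes that feed electrons to the chain, Etfa (-0.67, adjusted p = 0.0141), which takes electrons from fatty acid oxidation, and the mitochondrial creatine kinase Ckmt1 (-0.77, adjusted p = 0.0151) fell late under formula and hypoxia, and 0 rose, with a median of -0.10. With 26 arrays Etfdh (-0.61, adjusted p = 0.0465), which passes these electrons on to ubiquinone, was added. These counts, 2 of 16 and 3 of 16, stand beside 11.5% and 12.7% of all genes that fell. Late under breast feeding Ckmt1 (-1.10) and Gpd2, the glycerol phosphate dehydrogenase of the inner membrane (-1.02), fell, and Nnt, a transhydrogenase (0.79), rose, the latter pair with 28 arrays only. Over all days Gpd2 was higher (0.85, adjusted p = 0.00182) and Nnt lower (-0.74, adjusted p = 0.00214) under formula and hypoxia than under breast feeding. Of 11 genes of biogenesis, import and assembly, Hspe1, the mitochondrial co-chaperonin (-1.33, adjusted p = 0.000272), and Pmpcb, a protease that trims imported proteins (-0.99, adjusted p = 0.0061), fell late under formula and hypoxia, with 28 and with 26 arrays, and 0 rose. The complex IV subunits of the mitochondrial genome, COX1 (0.14), COX2 (-0.35) and COX3 (-0.07), were not called in that comparison (adjusted p = 0.677, 0.644 and 0.907), with a standard error of 0.48 for COX2.

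Markers of cell types moved between the same groups, and their part in the members' change was not tested. Their counts late under formula and hypoxia stand beside 11.5% of all genes that fell and 10.8% that rose with 28 arrays. Of 17 enterocyte and ileum markers 16 were above the filter, beside 3185 of 4736 genes, with Si, sucrase-isomaltase, below it. Their summed signal was 19700 to 36700 in unfed pups and 36500 to 46200 late under formula and hypoxia, where 8 rose (among them Apob, Krt19, Anpep, Apoa1, Krt8 and Fabp6) and Fabp1 fell (-2.28). The highest unfed value, 36700, belonged to replicate 2, the unfed array with the lowest median of the members. Smooth muscle markers, 10 of 10 above the filter, went from 6730 to 11800 in unfed pups to 13700 to 20800, and 5 rose (Des, Myh11, Tpm1, Actg2 and Acta2), with Cnn1 (1.42) added with 26 arrays. Late breast-fed pups had sums of 27100 to 41200 and 13100 to 19600 for these lists.

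Striated muscle markers, 10 of 23 above the filter, had sums of 969 to 1620 in unfed pups and 689 to 1140 late under formula and hypoxia, where Tnnt2 (-1.78), Myh1 (-1.51) and Actc1 (-1.28) fell. Defining genes of skeletal muscle such as Acta1, Myh4 and Tnni2 were below the filter. For fat, 5 of 9 markers were above it and Fabp3 (-1.85) and Fabp4 (-1.23) fell, with sums of 1060 to 1850 and 911 to 1730, while Ucp1 and Cidea, which define brown fat, were below the filter. Red cell markers, 5 of 5, had sums of 16200 to 19100 and 12200 to 17900, and Alas2 (-0.99) fell. Of 9 proliferation markers Stmn1 (-1.03) fell and Ccnd1 (0.85) rose, with sums of 3250 to 4050 and 1890 to 3050. With 26 arrays 3 fell, Cdk1 (-1.02) and Ccnb1 (-0.51) being added. The counts of the enterocyte, striated muscle, fat and red cell lists in this comparison were the same with 26 arrays. Between the regimens over all days, where Ndufb2 and Ndufs1 were lower with 26 arrays, 3 of 9 proliferation markers were lower under formula and hypoxia with 28 arrays and 7 with 26. Of all genes 6.75% and 5.4% were lower in these fits.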

How the data were processed

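The authors deposited 1 linear intensity per probe set and array, each array from 1 pup. From the values, 26 of 28 arrays had a 2% trimmed mean between 150.2 and 150.5, and the other pair had 109.2 and 209.2. The software behind the intensities is not given in the sources used here. Groups and replicate numbers came from titles and descriptions.

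The intensities were quantile normalised, a pseudocount of 8 was added and log2 was taken. Folds are on that scale. The 59 control probe sets were left out, as were 7 probe sets with several symbols of the rule. Probe sets with a mean above the 40th percentile (signal 24.0) were kept, 5244 in all, and the highest per gene was used (3185 genes). With limma 3.58.1 in R 4.3.3, all 28 arrays entered a group-means model, leaving 19 residual degrees of freedom, with empirical Bayes moderation and an intensity trend. The 12 contrasts and the F test are two-sided, with Benjamini-Hochberg adjustment over all genes tested, and a call means an adjusted p under 0.05. Late means the mean of days 3 and 4. With 3 or 4 arrays per group, their number limits the precision. The p-values measure the spread between pups.

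Every member is named. Members called in a contrast are given with signals or their range in the groups compared, and where a contrast had 0 called, the 3 largest changes are given. For the other mitochondrial lists, up to 6 called genes per contrast are named. The members and lists were chosen with earlier results of these data known. The fit was tested on simulated data. Alternatives were other scalings, pseudocounts of 2 and 32, other filters, 1 test per probe set, no trend, array weights, the run, a replicate block and leaving out arrays.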

Additional observations from a re-analysis of the deposited data

Results flagged for a closer look

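In the unfed group, 6 of 56 members had 1 array far from the other 3, and it was replicate 2, on the low side, each time. The gap to the nearest other array, as a share of the group's range on the log2 scale, was above Dixon's critical value of 0.829, which chance exceeds in about 1 of 20 groups. All 6 come from the same array, so they are not separate events. The share was 0.922 for Ndufa9, with a signal of 312 against 641 to 682 in the others. It was 0.913 for Ndufb1 (179 against 720 to 821) and 0.912 for Cox7a2l (718 against 1600 to 1730). Ndufa5 had a share of 0.910 (684 against 1670 to 1830), Ndufa3 of 0.907 (655 against 1510 to 1650) and Ndufb3 of 0.850 (461 against 1350 to 1640). No abundant member was lost on this array, its beta-actin 3′ to 5′ ratio was 0.97, and its sum of enterocyte and ileum markers was the highest of the unfed arrays at 36700. Without this array and the 2 arrays with losses, 29 members were lower late under formula and hypoxia than in unfed pups, beside 14% of all genes, against 23 and 12.7% with this array kept. Late under breast feeding 11 were lower, beside 3.92% of all genes, against 2 and 1.73%.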

How the results depend on the processing

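The 22 calls of single members kept their direction in all 984 fits under alternatives and stayed past the threshold in 840 of them. Uqcr11, Ndufb11, Ndufb2, Ndufaf3 and Atp5pf stayed called from unfed to late formula and hypoxia under all 45 alternatives. Counts moved by more than 1.5 times as follows, and the cause was not tested unless the alternative removes arrays. For late formula and hypoxia against unfed (12), 26 arrays gave 23, or 28 with the deposited scaling, 31 with a common median and 29 without unfed replicate 2. For late breast feeding against unfed (6), the deposited scaling gave 2, array weights 16, the run as a term 12 and 26 arrays 2, or 2 with the run, 1 with the deposited scaling, 2 with a common median and 11 without unfed replicate 2. For day 4 against day 1 of formula and hypoxia (4), 1 test per probe set gave 7, array weights 8, the first run alone 13 and 26 arrays 12, or 9 with the run, 12 with the deposited scaling, 10 with a common median and 15 without unfed replicate 2. For any group (5), these gave 8, 20, 11 and 17, then 13, 13, 13 and 21. For the regimens over all days (0), the 60th percentile filter gave 1, array weights 5 (Cox4i2 higher and 4 lower), 26 arrays 2, a common median with 26 arrays 1 and dropping unfed replicate 2 as well 3. Breast-fed day 4 against day 1 (0) gave 1 with the deposited scaling (Cox6c-ps1, higher). Leaving out each array in turn gave 6 to 17 for late formula and hypoxia, 2 to 15 for late breast feeding, 1 to 8 for day 4 against day 1 of formula and hypoxia, 0 to 2 for that of breast feeding, 5 to 14 for any group and 0 to 2 over all days. It gave 0 to 1 on day 3, on day 4 and for day 1 of formula and hypoxia against unfed, and 0 to 0 for the other comparisons.

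Replicate numbers gave no sign of pairing the pups, though this cannot exclude a pairing. Deviations of same-numbered arrays had a median correlation of -0.00228 (108 pairs, -0.473 to 0.304), against 0.0112 for other pairs. With the replicate number as a block 8 members were called for late formula and hypoxia, 3 for late breast feeding and 1 over all days. The 4 added settings on 26 arrays, with the run, other scalings or without unfed replicate 2, were chosen after seeing the data. Dim members such as Ndufs1, Cox8b and Cox6c-ps1 lie near the filter, where the pseudocount shrinks changes.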
